A study of Homo sapiens with 2 samples.

Results

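The genes described here are APEX1, PARP2 and 8 further genes of base excision repair (APEX2, PARP1, XRCC1, LIG3, POLB, OGG1, UNG and FEN1), 10 of the 28038 genes listed in the table, picked by gene symbol. They were proposed because APEX1 and PARP2 stood far from the rest in this same comparison, so their values are a description and no test was made on them. The series compared OVCAR3 cells, an established human ovarian carcinoma line, in 2 groups: control cells that received a blank viral vector, and cells overexpressing the m6A-reading RNA-binding protein IGF2BP3. Each group is 1 library of poly(A)-selected RNA, with no replicate, so every difference is between these 2 libraries and no p-value was computed.

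Base excision repair removes small lesions from DNA, such as oxidised, alkylated or deaminated bases. A DNA glycosylase cuts out the damaged base, an AP endonuclease opens the backbone at the empty site, a polymerase fills the gap and a ligase seals it. PARP enzymes bind the broken strand and make poly(ADP-ribose), which recruits the scaffold XRCC1 with its partners. In ovarian cancer the pathway is best known through PARP inhibitors, which are used against tumours with defects in homologous recombination.

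Total counts were 43190215 in the control and 48017861 with overexpression. IGF2BP3 itself went from 2944 to 6376 counts, 1.96-fold higher (95% counting interval 1.88 to 2.05). The cell type in the labels was poorly matched by its defining markers. Of 12 epithelial markers chosen, 10 were listed and 8 of those were below 10 CPM (counts scaled to library size, the unit used for levels of 1 gene) in both libraries, with CDH1 at 2 counts in each. Of 8 markers of ovarian serous carcinoma only PAX8, at 28 and 32 counts, and WFDC2, at 4 and 0, were listed. Mesenchymal markers were mixed: 6 of the 9 in the table did not reach 10 CPM in either library, whereas VIM, at 2175 and 2149 CPM, held most of their sum of 2259 and 2233 CPM. Next to these, the leukocyte markers summed to 2.77 and 3.20 CPM and the endothelial ones to 0.0462 and 0.0836 CPM. Summed epithelial markers were at 127 and 136 CPM, of which the keratin KRT18 made up 103 and 102 CPM. The tight junction gene OCLN, another of them, had 397 and 1011 counts, a ratio of 2.31 (2.05 to 2.60). The part of these markers in the results below was not tested.

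APEX1 was lower and PARP2 higher in the overexpression library, and the other 8 genes lay close to their control level. All 10 genes passed the minimum of 50 counts over both libraries. On the scale of log2 CPM plus 1, 2 of the 10 were at least 2-fold different, beside 0.678% of the 14157 genes measured. PARP2 was the member that was higher, beside 0.381% of measured genes, and APEX1 the member that was lower, beside 0.297%. At 1.5-fold the count was also 2 of 10, beside 1.66%. Since the genes were chosen from this comparison, nothing is read from these counts. The other 8 lay between 0.821 and 1.05 times their control level, 4 above and 4 below it. The median log2 ratio of the 10 was -0.017, beside 0.0042 over all measured genes.

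APEX1 (ENSG00000100823; GRCh38 chromosome 14, 20455191 to 20457772, plus strand) encodes the main AP endonuclease of human cells, which also acts as a redox partner of transcription factors. It had 1922 control counts against 125 with IGF2BP3, or 44.4 and 2.61 CPM. The overexpression library thus held 0.0589 times the control level, with a counting interval of 0.0487 to 0.0706. Its log2 ratio of -3.65 was the second lowest of all measured genes, and -4.09 is its log2 fold change in the authors' deposited table. The transcript was still present in the overexpression library, well above the 0.0627 CPM that 3 counts are worth there. In such bulk RNA, fewer cells expressing a gene and less RNA per cell cannot be told apart.

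PARP2 (ENSG00000129484; chromosome 14, 20343582 to 20357905, plus strand) encodes the smaller of the 2 main DNA break-activated PARP enzymes. Counts were 68 in the control and 515 with IGF2BP3, or 1.57 and 10.8 CPM, a ratio of 6.86 with a counting interval of 5.32 to 8.96. After adding 1 CPM to both levels its log2 ratio came to 2.19, against 1.26 with 5 CPM added and 2.70 with 0.1 CPM added, because the constant weighs heavily on a gene this low in the control library. The authors' deposited table gives 2.77 for it. PARP2 ranked 15th from the top of all measured genes.

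**Figure D1:**
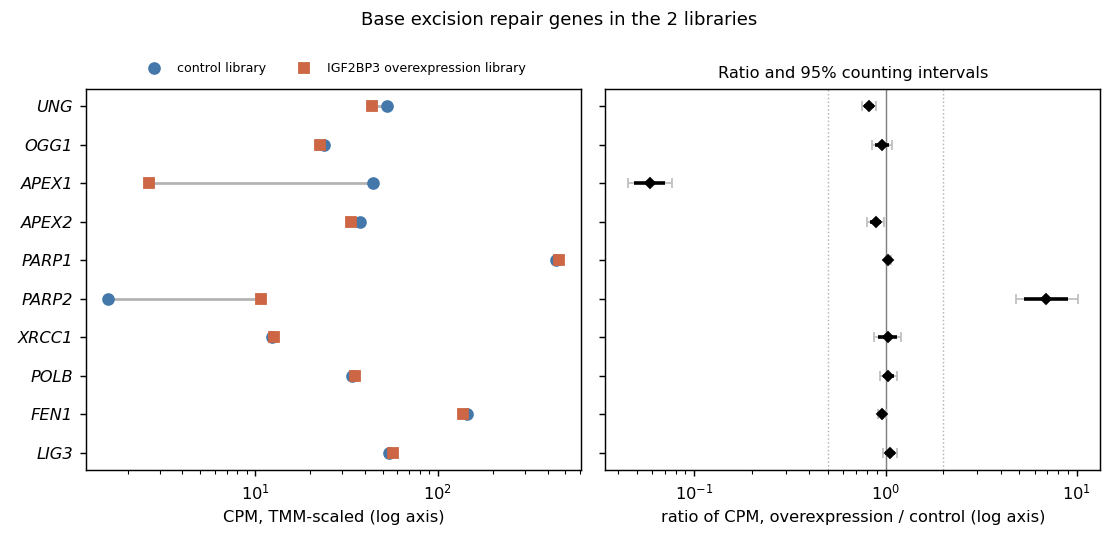
Left: level of each of the 10 genes in CPM (log axis) in the control library (circles) and the IGF2BP3 overexpression library (squares). Right: ratio of the libraries (log axis) with 95% counting intervals from the counts as deposited (thick) and from halved counts (thin, capped), and dotted lines at 2-fold. APEX1, at 0.0589, and PARP2, at 6.86, lie outside the dotted lines and the other 8 genes lie between 0.821 and 1.05.

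The 300 bases around the start of both genes are shown because these are the members that the result turns on and because they share a chromosome arm and a strand. The sequences are from RefSeq on GRCh38.p14, which held a window for 9 of the 10 genes, from 250 bases before to 50 bases after the start. Capitals in the APEX1 window (chr14:20454976-20455275, plus strand) mark the E-box CACGTG, a palindrome that reads the same on both strands. Capitals in the PARP2 window (chr14:20343385-20343684, plus strand) mark the cAMP response element TGACGTCA, also a palindrome.
APEX1: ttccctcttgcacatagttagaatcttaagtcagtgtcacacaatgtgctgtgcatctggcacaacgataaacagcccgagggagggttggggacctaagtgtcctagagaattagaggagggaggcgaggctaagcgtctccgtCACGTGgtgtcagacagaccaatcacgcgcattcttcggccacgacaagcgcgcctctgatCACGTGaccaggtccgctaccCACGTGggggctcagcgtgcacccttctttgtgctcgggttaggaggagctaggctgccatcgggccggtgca
PARP2: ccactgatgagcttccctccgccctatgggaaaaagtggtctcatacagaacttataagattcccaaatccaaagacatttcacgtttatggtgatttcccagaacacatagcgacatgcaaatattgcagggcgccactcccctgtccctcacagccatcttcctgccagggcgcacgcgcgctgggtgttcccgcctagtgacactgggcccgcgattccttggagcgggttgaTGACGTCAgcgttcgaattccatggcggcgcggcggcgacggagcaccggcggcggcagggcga

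The APEX1 window holds CACGTG 3 times, beginning 105, 44 and 23 bases before the RefSeq start. Of all 35116 RefSeq windows of this length, 7.26% hold this word at least once and 33 (0.094%) at least 3 times. Among the other members it occurs once in the windows of LIG3 and FEN1 and 2 times in the second of the 2 UNG windows. The PARP2 window holds TGACGTCA once, 14 bases before the start, a word present in 1.85% of all windows, and no window of another member holds it. The words were chosen with the windows in view, and a match describes letters only.

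APEX1 and PARP2 lie 97.3 kb apart on chromosome 14, with other genes that differed between and beside them. Between 20311368 and 20461612, a span of 150 kb, 6 genes passed the count minimum and 5 of them were at least 2-fold different, 3 higher and 2 lower in the overexpression library. The span was drawn after the values were seen, from the outermost of these 5 genes, which include APEX1 and PARP2 themselves, so the count describes the stretch and nothing is read from it. PIP4P1, which encodes a phosphoinositide phosphatase of the lysosome, lies tail to tail with APEX1 on the other strand, and their annotated exons overlap by 54 bases, 2.86% of the APEX1 exon length. It went from 23 to 432 counts, a ratio of 17.0 (11.2 to 27.1), opposite in direction to APEX1. TEP1, a telomerase-associated protein, lies between PARP2 and APEX1 and went from 262 to 98 counts, to 0.339 times its control level (0.266 to 0.429). CCNB1IP1, a ubiquitin ligase of meiotic crossing over, lies 10.3 kb from PARP2 and went from 68 to 484 counts, a ratio of 6.44 (4.99 to 8.43), close to that of PARP2.

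Other genes of the same stretch or its edges differed little. OSGEP, a tRNA-modifying enzyme that starts head to head with APEX1 86 bases away, had 336 and 396 counts, a ratio of 1.07 (0.920 to 1.24). PNP, the purine nucleoside phosphorylase 11.2 kb beyond APEX1, had 1030 and 1105 counts, a ratio of 0.971 (0.891 to 1.06). TTC5, 37.6 kb beyond PARP2 on the other side, had 129 and 134 counts, a ratio of 0.940 (0.733 to 1.21). TTC5 and PNP are the measured genes next to the span on either side, and their intervals, like that of OSGEP, included 1-fold.

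APEX1 shared 1.03% of its 31-base words with another annotated gene, and PARP2 2.21%. Within 1 Mb, APEX1 had 17 measured neighbours and PARP2 had 16, of which 4 each were at least 2-fold different. These are largely the same genes: CCNB1IP1, TEP1 and PIP4P1 are in both sets, and the fourth of each is the other gene of the pair. None of the other 8 genes had such a neighbour within 1 Mb, among 11 to 50 measured neighbours each. Of all measured genes 0.678% were at least 2-fold different. At that share few or none would be met among so many neighbours, so nothing is read from their absence.

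**Figure D2:**
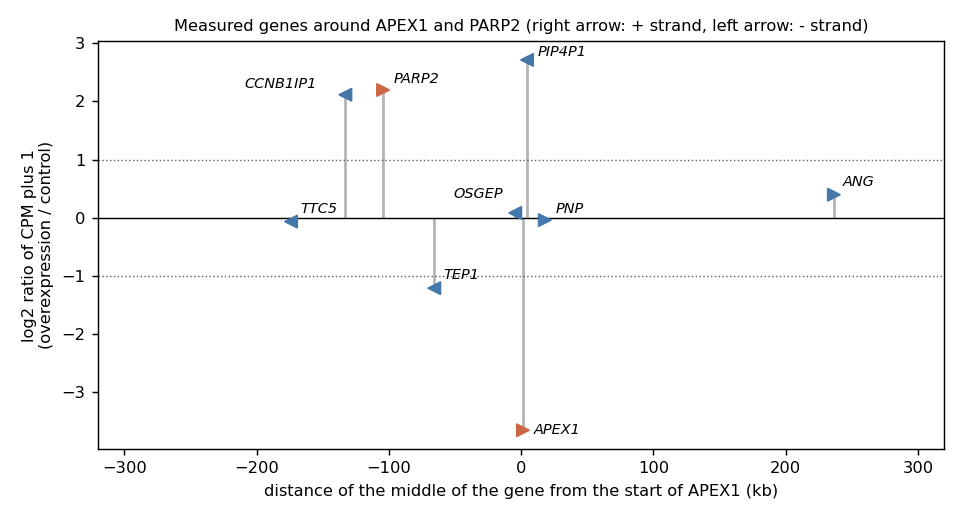
Log2 ratio of CPM plus 1 for the measured genes within 300 kb of APEX1, by the distance of the middle of each gene from the start of APEX1 in kb. Arrows point along the strand, APEX1 and PARP2 are in orange and dotted lines mark 2-fold. PARP2, CCNB1IP1 and PIP4P1 stand above 2, APEX1 at -3.65 and TEP1 at -1.21, while OSGEP, PNP and TTC5 stay near 0.

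By ratio alone, the genes most like APEX1 among all measured genes were RCC2, at a log2 ratio of -3.43, CEP20, at -3.24, and RPN2, at -4.10, none of them on chromosome 14. Among those most like PARP2 were its neighbour CCNB1IP1, at 2.11, and EMC9, at 2.07. EMC9, also on chromosome 14, had 3 and 167 counts, a ratio of 50.4 (16.9 to 247) against 6.86 for PARP2. The log2 ratios of these 2 genes are close only because 1 CPM is added to each level. Likeness here is the distance between log2 ratios of CPM plus 1 over 2 libraries.

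Of the glycosylases, UNG (chromosome 12, 109097574 to 109110992, plus strand) removes uracil from DNA and was the member furthest from its control level after APEX1 and PARP2. Its counts were 2301 and 2088, or 53.1 and 43.6 CPM. The ratio was 0.821, with a counting interval of 0.774 to 0.872. OGG1 (chromosome 3, 9749944 to 9788219, plus strand), which removes 8-oxoguanine, had 1029 and 1085 counts, a ratio of 0.955 (0.876 to 1.04). UNG thus lay below its control level beyond counting error and OGG1 did not.

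APEX2 (chromosome X, 55000357 to 55009057, plus strand) encodes the second AP endonuclease, whose AP site activity is weak and which trims mismatched ends. It had 1628 and 1596 counts, or 37.6 and 33.3 CPM, a ratio of 0.887 (0.828 to 0.951). APEX2 was thus not higher in the library where APEX1 was low. Per gene length, in FPKM, APEX1 stood at 23.6 and APEX2 at 11.6 in the control library, a ratio of 2.03 (1.90 to 2.17). In the overexpression library APEX1 stood at 1.38 and APEX2 at 10.3, a ratio of 0.135 (0.111 to 0.161). The order of the pair was thus opposite in the 2 libraries, and their summed level went from 35.2 to 11.6 FPKM.

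PARP1 (chromosome 1, 226360691 to 226408079, minus strand), the enzyme that makes most of the poly(ADP-ribose) at breaks, had 19320 and 22027 counts, or 446 and 460 CPM. Its ratio of 1.03 had a counting interval of 1.01 to 1.05. PARP1 was 62.7 times PARP2 per length in the control library (49.5 to 80.8) and 9.44 times in the overexpression library (8.65 to 10.3). With the shorter exon length that GENCODE 29 gives PARP1, an alternative chosen after seeing the data, PARP1 was 162 times PARP2 (128 to 209) in the control and 24.4 times (22.4 to 26.7) with IGF2BP3. PARP1 was far above PARP2 in both libraries with either length. The summed level of the pair was 24.7 and 27.6 FPKM, or 62.8 and 66.6 FPKM with GENCODE 29 lengths.

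The scaffold and the enzymes that finish the repair were near 1-fold. XRCC1 (chromosome 19, 43543040 to 43580473, minus strand), the scaffold, had 538 and 608 counts, a ratio of 1.02 (0.909 to 1.15). LIG3 (chromosome 17, 34980494 to 35009743, plus strand), the ligase that binds XRCC1, had 2345 and 2730 counts, a ratio of 1.05 (0.997 to 1.11). POLB (chromosome 8, 42338454 to 42371808, plus strand), the polymerase that fills single-base gaps, had 1480 and 1692 counts, a ratio of 1.03 (0.965 to 1.11). For these 3 genes the counting interval included 1-fold. FEN1 (chromosome 11, 61792637 to 61797244, plus strand), which cuts the displaced flap in long-patch repair, had 6299 and 6632 counts, a ratio of 0.953 (0.921 to 0.987).

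Counting intervals excluded 1-fold for 6 of the 10 genes, beside 41.4% of all measured genes. Even numbers were in surplus among low counts (64.1% and 63.3% of values between 1 and 20), so the intervals were also computed from halved counts. On these, 5 of the 10 intervals excluded 1-fold, beside 26.8% of all measured genes, and that of FEN1 became 0.907 to 1.00. The interval of APEX1 became 0.0448 to 0.0761 and that of PARP2 4.78 to 10.1. Those of UNG, 0.755 to 0.894, APEX2, 0.804 to 0.980, and PARP1, 1.00 to 1.06, still excluded 1-fold, that of PARP1 narrowly.

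**Figure D3:**
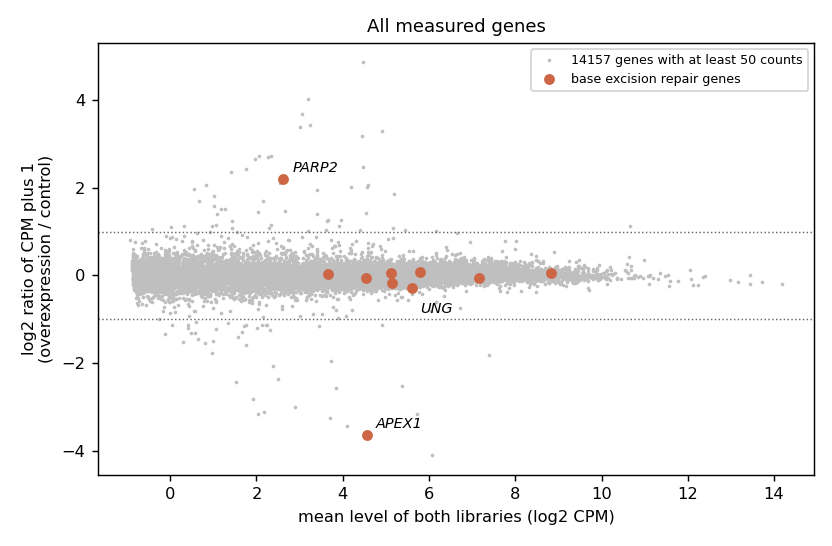
Log2 ratio of CPM plus 1 against the mean level of both libraries (log2 CPM) for 14157 measured genes (grey) and the 10 base excision repair genes (orange), with dotted lines at 2-fold. APEX1, at -3.65, and PARP2, at 2.19, lie among the sparse outer points and the other 8 lie within the grey band, UNG lowest at -0.28.

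In the control library the order of levels per length, in FPKM from the authors' table, was FEN1 at 66.4, PARP1 at 24.3, APEX1 at 23.6, APEX2 at 11.6, UNG at 10.1, POLB at 8.35, XRCC1 at 4.54, LIG3 at 4.21, OGG1 at 2.73 and PARP2 at 0.388. Neighbours that did not differ beyond counting error were PARP1 and APEX1, with a ratio of 1.03 (0.983 to 1.08), and XRCC1 and LIG3, with 1.08 (0.980 to 1.18). In the overexpression library the order was FEN1, PARP1, APEX2, POLB, UNG, XRCC1, LIG3, PARP2, OGG1 and APEX1. APEX1 thus held the third place in the control and the last, at 1.38 FPKM, with IGF2BP3. POLB and UNG, at 8.58 and 8.25 FPKM, did not differ there beyond counting error, with a ratio of 1.04 (0.975 to 1.11), nor did XRCC1 and LIG3, with 1.05 (0.957 to 1.14). PARP2, at 2.64 FPKM, moved up to the eighth place beside OGG1, at 2.59, and the ratio of that pair was 1.02 (0.917 to 1.13). The places depend on the gene lengths used. The authors' values imply 18399 bases for PARP1 and 5271 for UNG, where the exons of GENCODE 29 cover 7169 and 2567. With GENCODE 29 lengths PARP1 came first and FEN1 second in both libraries, while APEX1 kept the third and the last place and PARP2 the last and the eighth. With these lengths 3 of the 4 pairs named above did differ. PARP1 was 2.64 times APEX1 (2.52 to 2.77) in the control library, and POLB was 0.507 times UNG (0.475 to 0.540) in the overexpression library. XRCC1 was 0.857 times LIG3 (0.779 to 0.941) in the control and 0.832 times (0.761 to 0.909) with IGF2BP3, while PARP2 over OGG1 stayed at 1.01 (0.909 to 1.12).

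Several of the 8 genes near their control level share exon sequence with a neighbour on the other strand, and the strand setting of the counting is not given, so their counts may hold reads of that neighbour. The same limit holds for APEX1, which PIP4P1 overlaps over 2.86% of its exon length. It also holds for PARP2, which the antisense genes AL355075.4 and AL355075.1 overlap over 2.54% and 0.635%. RFFL overlaps 29.1% of the LIG3 exon length, and its ratio was 1.30 (1.17 to 1.45). CAMK1 overlaps 25.0% of OGG1, with a ratio of 1.02 (0.859 to 1.22). For FEN1, which has a pseudogene copy, 13.8% of 31-base words occurred in another annotated gene, and for XRCC1 20.6% did.

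The rest of the pathway lay near its control level. A list of 46 genes of glycosylases, end processing, gap filling with ligation and PARP signalling included the 10, and all 46 passed the count minimum. None of the 36 genes outside the 10 was at least 2-fold different, beside 0.678% of all measured genes. None was 1.5-fold different, beside 1.66%. At such shares few or none of 36 genes would be, so nothing is read from these counts. The median log2 ratio of the 36 was -0.0037, with 18 above 0 and 18 below.

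Among 11 glycosylases, 5 were above 0 and 6 below, with a median log2 ratio of -0.035. NEIL2, which removes oxidised bases, was the furthest from 0, with 144 and 226 counts, a ratio of 1.42 (1.15 to 1.76). Of 7 AP endonucleases and end-processing genes, TDP2, which frees DNA ends from trapped topoisomerase, was the furthest after APEX1, with 4965 and 6329 counts, a ratio of 1.15 (1.11 to 1.20). Among 20 gap filling and ligation genes, 9 were above 0 and 11 below. None was 1.5-fold different on the scale of CPM plus 1, beside 1.66% of all measured genes. POLD4, a small subunit of polymerase delta, had 45 and 70 counts, a ratio of 1.41 (0.955 to 2.10) whose interval included 1-fold, and the clamp loader subunit RFC5 had 3932 and 3901, a ratio of 0.898 (0.859 to 0.939).

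Of 8 genes of PARP signalling at breaks, 6 were above 0, PARP2 among them, beside 51.1% of all measured genes. With so few genes nothing is read from this count. PARG, which removes poly(ADP-ribose), was the furthest after PARP2, with 1960 and 2346 counts, a ratio of 1.08 (1.02 to 1.15). On halved counts its interval, 0.995 to 1.18, included 1-fold. HPF1, the cofactor that directs PARP1 and PARP2 to serine, had 3116 and 3469 counts, a ratio of 1.01 (0.960 to 1.06); it was named for its role after its value was seen. Of 17 chosen PARP family genes 15 passed the minimum, and 12 of them were above 0, beside 51.1% of all measured genes, with a median log2 ratio of 0.11. PARP2 was the only one at least 2-fold different, beside 0.678% of all measured genes. TIPARP, an aryl hydrocarbon receptor target, had the next highest log2 ratio of CPM plus 1, at 0.39, with 2709 and 3929 counts and a ratio of 1.31 (1.25 to 1.38). PARP11 lay beside it at 0.38 on that scale, and its ratio with no constant added, 1.38 (1.14 to 1.67), was above that of TIPARP.

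**Figure D4:**
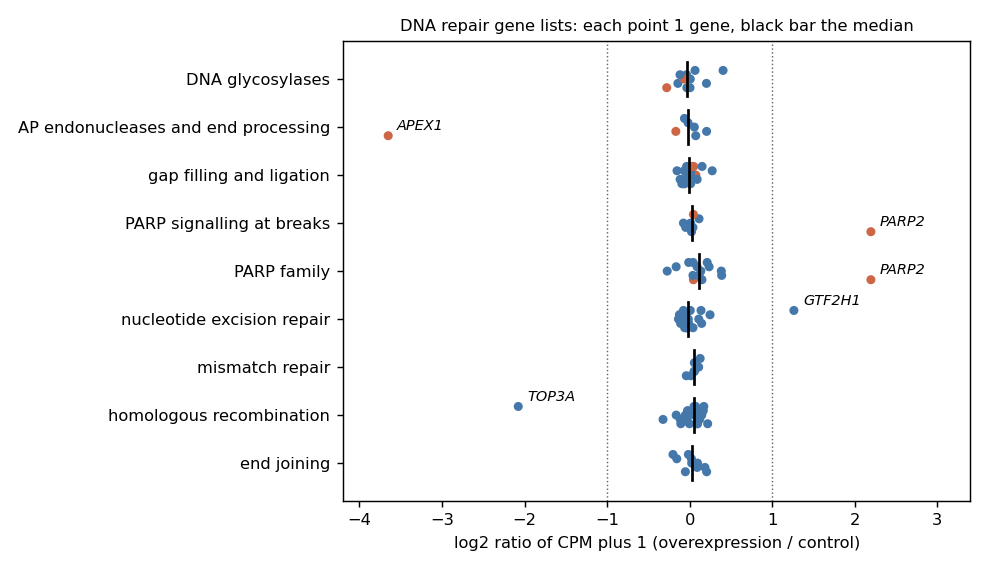
Log2 ratio of CPM plus 1 for each measured gene of 9 DNA repair lists (points, the 10 base excision repair genes in orange), with the median of each list as a black bar and dotted lines at 2-fold. APEX1, PARP2, TOP3A and GTF2H1 lie beyond 2-fold, and every list median lies between -0.035 and 0.11.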

How the data were processed

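RNA from 1 control culture and 1 IGF2BP3-overexpressing culture was compared. The authors deposited whole-number counts and FPKM for each gene, as named in the file headers. The authors' log2 fold change, a further column per the file headers, is quoted only where named. The build is GRCh38, per the submitters' processing notes; for the aligner, counter, strand setting and annotation release the sources used here give nothing. Libraries of 43190215 and 48017861 counts were scaled by TMM (edgeR 4.0.16, R 4.3.3) to CPM, and a gene needed 50 counts or more, summed over the libraries, to be measured. Exact (Clopper-Pearson) intervals cover counting error only, with no spread between cultures. They take reads as independent, which PCR reads without molecular identifiers are not, so they may be too narrow even for counting error. Alternatives included DESeq2 1.42.0 size factors. Positions came from GENCODE 29 and promoters from RefSeq (GRCh38.p14). The procedure was run on simulated counts drawn independently (Poisson). These lack the surplus of even numbers seen in the data, so the run cannot show how well the intervals hold here. Python 3.11.15, numpy 2.4.6, pandas 2.3.3, scipy 1.17.1 and matplotlib 3.10.9 were used.

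The genes studied and all lists were chosen with earlier results of these data known. Named were all 10 genes, the pair of members furthest from 0 in each repair list, genes with at least 50 counts within 100 kb of APEX1 or PARP2, genes at least 2-fold different within 1 Mb of any of the 10, and the 3 genes nearest APEX1 and the 3 nearest PARP2 in ratio; any other gene was chosen after its values were seen. Some genes that this rule names are not reported here.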

Additional observations from a re-analysis of the deposited data

How the results depend on the processing

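APEX1 and PARP2 kept their direction, and 2 of the 10 genes and 2 of the wider list of 46 stayed past the threshold, under every alternative run: other scalings, the authors' FPKM plus 1, other pseudocounts, count minimums and thresholds of 1.5-fold and 3-fold. The log2 ratio of APEX1 was -3.37 with FPKM plus 1, -4.04 with 0.1 CPM added and -2.70 with 5 CPM added, against -3.65. That of PARP2 was 1.39, 2.70 and 1.26 in the same order, against 2.19. The count over all genes, 96, became 44 with FPKM plus 1, where unit and scaling change along with the constant, and 209 and 39 with 0.1 and 5 CPM added; thresholds of 1.5-fold and 3-fold gave 235 and 44. The other 8 genes kept their sign in 8 of 8 alternatives each. Only the other scalings and FPKM plus 1 could have changed a sign, for these 8 as for APEX1 and PARP2. A constant added to both levels cannot do so, and a count minimum leaves the value of a gene as it is. No replicate could be left out and no paired analysis was possible because each group holds 1 library. Intervals cover counting error only, so culture-to-culture spread is unknown.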

Other observations

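Outside base excision repair, 2 of the 60 measured genes of nucleotide excision repair, mismatch repair, homologous recombination and end joining were at least 2-fold different, beside 0.678% of all measured genes, and their median log2 ratio was 0.011. TOP3A, the topoisomerase that dissolves recombination intermediates with BLM, went from 395 to 67 counts, to 0.154 times its control level (0.117 to 0.199). Its partners, named after their values were seen, stood at 0.923 (BLM), 1.04 (RMI1) and 0.981 (RMI2). GTF2H1, a core subunit of the repair and transcription factor TFIIH, went from 379 to 1071 counts, a ratio of 2.56 (2.27 to 2.88). The TFIIH subunits ERCC2, at 0.917, ERCC3, at 0.949, GTF2H2, at 0.970, GTF2H3, at 0.990, and GTF2H5, at 0.907, lay below 1-fold. The intervals of GTF2H2 (0.864 to 1.09) and GTF2H3 (0.938 to 1.04) included 1-fold, and that of GTF2H5 did on halved counts (0.813 to 1.01). In both complexes 1 subunit was at least 2-fold different and the other measured ones listed here were less than 1.5-fold different.

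Neither gene had a neighbour at least 2-fold different on the scale of CPM plus 1 within 100 kb, among 5 measured neighbours of TOP3A and 1 of GTF2H1. With 0.678% of all measured genes that different, nothing is read from the absence among so few. The gene that lies closest to each had a counting interval that excluded 1-fold, in the same direction. SMCR8, 0.303 kb from TOP3A, had 80 and 55 counts, a ratio of 0.622 (0.433 to 0.888). HPS5, 0.097 kb from GTF2H1, had 148 and 332 counts, a ratio of 2.03 (1.67 to 2.48). Such intervals, in either direction, were found for 41.4% of all measured genes, so nothing is read from these neighbours. The other measured neighbours of TOP3A were ALKBH5 at 0.982, LLGL1 at 0.944, FLII at 1.06 and SHMT1 at 1.02. Their intervals included 1-fold. Of the 94 genes at least 2-fold different that had a position, 24 had another such gene within 100 kb. For 15 of these at least 1 such neighbour differed in the opposite direction, as PIP4P1 does from APEX1. The 24 include the 5 genes of the stretch with APEX1 and PARP2. The share of all measured genes with such a neighbour was not computed, so nothing is read from this count.

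Among the genes furthest from 0 within their own list were UVSSA in nucleotide excision repair, at 1.19 (1.12 to 1.26), MSH6 in mismatch repair, at 1.09 (1.06 to 1.12), XRCC3 in homologous recombination, at 0.788 (0.706 to 0.878), POLQ, at 1.15 (1.11 to 1.20), and POLM, at 0.861 (0.773 to 0.959), both in end joining. On halved counts the interval of POLM, 0.739 to 1.004, included 1-fold.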
